A study of Homo sapiens with 4 samples.

Results

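The genes described here encode the subunits of the HUSH complex and the partners of the histone methyltransferase SETDB1 in HEK293T cells, a transformed human embryonic kidney line. They are 9 of the 28775 genes counted, taken by name: the HUSH subunits TASOR, MPHOSPH8 and PPHLN1, the TASOR paralogue TASOR2, the methyltransferases SETDB1 and SETDB2, the cofactors ATF7IP and ATF7IP2, and CCDC66, whose 3′ end overlaps that of TASOR. The set was chosen on measured values, since the higher RNA of TASOR in MORC2 KO was known when it was drawn up. All differences between the genotypes in these 9 genes are therefore a description and carry no test.

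Polyadenylated RNA was sequenced from 4 samples, which were 2 of HEK293T cells with MORC2 knocked out (MORC2 KO) and 2 of wild-type HEK293T cells (WT). The knock-outs were made by electroporation of Cas9 with a single guide RNA against MORC2, which was gRNA 1 in MORC2 KO replicate 1 and gRNA 2 in MORC2 KO replicate 2, and the edited cells were kept as bulk populations, so a sample can hold cells with different edits. The study's methods name HEK293 cells at the electroporation step, whereas the labels of all 4 samples say HEK293T, which is followed here, and whether the KO and WT samples come from the same parental cells was not tested. The labels list no treatment for any sample, and name no edited gene other than MORC2. The number of read pairs assigned to genes was 59803625 and 64312514 in the MORC2 KO samples, against 60331708 and 53970043 in the WT samples. The study's methods call the WT replicates independent and the KO lines separately made, without saying what set the WT replicates apart. The spread between the KO samples is thus one between lines edited with different guides, and the errors below cover these 4 samples only.

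HUSH, the human silencing hub, represses retroelements and intronless transgenes by spreading trimethylation of histone H3 lysine 9. TASOR is the scaffold of the complex, MPHOSPH8 reads the methylated histone through its chromodomain and PPHLN1 binds RNA. SETDB1 writes the mark and needs ATF7IP to be stable in the nucleus, and MORC2 is an ATPase that HUSH recruits and that compacts chromatin.

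The identity of the cells was checked on marker genes. Levels are given as CPM, the count of a gene divided by the library size after scaling with TMM factors, which correct for differences in RNA composition. VIM, an intermediate filament gene of this line, was at 584.9 and 554.0 CPM in the MORC2 KO samples, against 547.4 and 574.9 CPM in the WT samples. The epithelial keratin KRT18 was at 5.89 and 6.18 CPM in the KO samples, against 6.55 and 6.80 CPM in the WT samples, and KRT8 at 1.97 to 2.46 CPM. The neurofilament gene NEFM was at 8.21 and 8.85 CPM in the KO samples, against 6.57 and 5.99 CPM in the WT samples, a log2 fold change of 0.44 (95% interval 0.21 to 0.68) that did not pass an adjusted p of 0.05 in edgeR's quasi-likelihood test. The renal gene PAX2 ranged from 1.15 to 1.60 CPM and LHX1 from 0.507 to 0.969 CPM. NEFM and LHX1 were higher and KRT18 lower in both KO samples than in both WT samples. Among all tested genes, 24.1% were higher and 23.4% lower in this way. The 95% interval of the log2 fold change was -0.18 to 1.14 for LHX1 and -0.38 to 0.09 for KRT18. The part of these markers in the differences below was not tested. All 6 markers of HEK293T were thus detected in all 4 samples. The leukocyte gene PTPRC had 1 read pair in all 4 samples together, DCN of fibroblasts at most 2, PECAM1 of endothelium at most 5 and ALB of hepatocytes at most 14 in any sample.

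The upstream sequence of 8 of the 9 genes was read from a RefSeq promoter table on GRCh38.p14, as the 250 bases before the most upstream listed start. It was searched on both strands for CCAAT, for the GC box GGGCGG, for CACGTG and for TATAAA. The sequences of TASOR, the gene with the large difference, of its paralogue TASOR2 and of its partner MPHOSPH8 are printed 5′ to 3′ on the strand of the gene, with CCAAT or its reverse complement ATTGG and GGGCGG or its reverse complement CCGCCC in capitals. They lie at chr3:56683266-56683515 on the minus strand for TASOR, at chr10:5684588-5684837 on the plus strand for TASOR2 and at chr13:19633409-19633658 on the plus strand for MPHOSPH8.
TASOR: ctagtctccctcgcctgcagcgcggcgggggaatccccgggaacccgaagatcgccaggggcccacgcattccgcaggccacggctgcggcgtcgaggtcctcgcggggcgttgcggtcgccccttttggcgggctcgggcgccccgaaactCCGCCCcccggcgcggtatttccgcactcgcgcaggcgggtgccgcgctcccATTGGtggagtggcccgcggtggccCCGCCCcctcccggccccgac
TASOR2: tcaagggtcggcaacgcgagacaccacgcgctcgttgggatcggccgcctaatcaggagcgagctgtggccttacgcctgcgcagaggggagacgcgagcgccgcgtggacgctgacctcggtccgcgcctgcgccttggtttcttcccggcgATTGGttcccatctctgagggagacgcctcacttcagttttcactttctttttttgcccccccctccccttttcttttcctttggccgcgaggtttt
MPHOSPH8: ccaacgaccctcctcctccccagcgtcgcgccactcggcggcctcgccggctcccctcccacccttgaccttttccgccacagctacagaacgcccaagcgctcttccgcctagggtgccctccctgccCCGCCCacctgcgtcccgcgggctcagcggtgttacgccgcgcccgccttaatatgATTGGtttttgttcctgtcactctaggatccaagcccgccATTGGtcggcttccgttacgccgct

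The TASOR promoter was the richest in CpG of the 8, with 37 CpG in 250 bases, more than 96.1% of the 27305 promoters of the table, where the median was 10. Its GC content was 76.4%, against a median of 57.6%. It held 1 CCAAT, 41 bases before the start, and 2 GC boxes. TASOR2 had 26 CpG and 1 CCAAT, 92 bases before the start, and no GC box. MPHOSPH8 also had 26 CpG, with 2 CCAAT and 1 GC box. The promoter of SETDB1 stood at the other end, with 9 CpG and a GC content of 46.0%. It was the only one of the 8 with CACGTG and had neither CCAAT nor a GC box. CCAAT was found in 6 of the 8, which were TASOR, TASOR2, MPHOSPH8, SETDB2, ATF7IP and CCDC66, and in 33.0% of all promoters. A GC box was found in 3 of the 8, which were TASOR, MPHOSPH8 and ATF7IP, and in 42.2% of all promoters. TATAAA was in none of the 8 and in 11.2% of all promoters, and CACGTG was in 6.46% of all promoters. These matches describe letters in a window, and binding was not measured here.

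MORC2 itself, the edited gene, was compared first as a check of the labels. Its CPM was 51.2 and 55.0 in the MORC2 KO samples, against 86.2 and 87.7 in the WT samples, so both KO samples were below both WT samples. The difference was -0.71 on the log2 scale (standard error 0.06, n = 2 per genotype, adjusted p = 0.000137, edgeR quasi-likelihood test with Benjamini-Hochberg adjustment). RNA of MORC2 remained at 61.1% of the WT level, and RNA of an edited gene does not measure its protein. The study's methods say that the efficiency of the knock-out was measured in both KO lines by western blot for MORC2. MORC2 shares 23.3% of its exonic bases with the antisense gene MORC2-AS1, and pairs that overlap both were left out. In bulk RNA, a difference in the level per cell and a difference in the share of cells that carry an edit cannot be told apart, and the same holds for the genes that follow.

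Among all 16675 genes tested, 0.588% were called higher and 0.03% lower at an adjusted p of 0.05. The called genes include 1 of the 9, TASOR, as the choice of the set fixed, and this is no test of TASOR. Without MORC2 KO replicate 1, where 8.16% of all genes were called higher and 12.4% lower, they include 2 of the 9, TASOR and SETDB1, which is likewise a description. Both KO samples were above both WT samples in 5 of the 9 genes, beside 24.1% of all tested genes, and below both in 2, beside 23.4%. TASOR, SETDB1, SETDB2, ATF7IP and ATF7IP2 were the 5 and TASOR2 and MPHOSPH8 the 2, while in PPHLN1 and CCDC66 the genotypes overlapped. Nothing is read from these counts, since they were known when the genes were chosen. All 9 genes passed the filter on low counts.

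**Figure D1:**
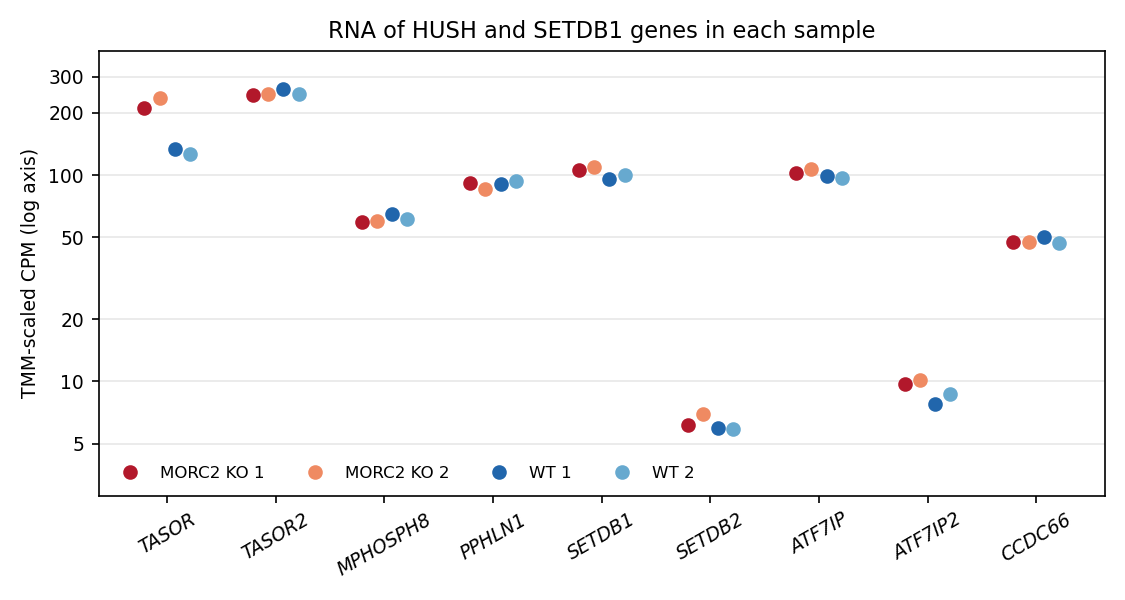
TMM-scaled CPM on a log axis for each of the 9 genes, with 1 point for each of the 2 MORC2 KO and 2 WT samples. The KO points of TASOR (211 and 236 CPM) stand above its WT points (133 and 126 CPM), while in the other 8 genes the 4 points lie close together.

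TASOR (Entrez identifier 23272) has 24 exons on the minus strand of chromosome 3, between 56660459 and 56723580 in T2T-CHM13v2.0, the build of all gene positions below, with 8928 exonic bases. Its CPM was 211 and 236 in the MORC2 KO samples, against 133 and 126 in the WT samples. Both KO samples were high, with MORC2 KO replicate 2 the higher, and the gap between the genotypes was wider than that between the replicates of either. The KO mean of 224 ± 17.5 CPM (SD, n = 2) was set against a WT mean of 129.9 ± 4.99 CPM (SD, n = 2), so the KO level was 172% of the WT level. The log2 fold change was 0.78 with a 95% interval of 0.64 to 0.93 and was above that of 98.2% of the tested genes. It was 0.70 without MORC2 KO replicate 2 and 0.85 without MORC2 KO replicate 1. MORC2 KO replicate 1 had the lower level of both TASOR RNA and MORC2 RNA of the 2 KO samples. A relation between the levels cannot be read from 2 samples and was not tested.

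The other subunits of the core complex had smaller differences. MPHOSPH8 (Entrez identifier 54737; chromosome 13, 18829736 to 18869507, plus strand, 14 exons) was at 59.0 and 59.6 CPM in MORC2 KO and 65.0 and 61.5 CPM in WT. The KO samples were the lower pair, with a log2 fold change of -0.09 and a 95% interval of -0.22 to 0.03. That value was -0.05 without WT replicate 1 and -0.13 without WT replicate 2. PPHLN1 (Entrez identifier 51535; chromosome 12, 42284102 to 42406479, plus strand, 16 exons) was at 91.8 and 85.8 CPM in MORC2 KO and 90.4 and 93.6 CPM in WT. The genotypes overlapped, since MORC2 KO replicate 1 lay between the WT samples, and the log2 fold change was -0.05 (95% interval -0.18 to 0.08).

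TASOR2, which takes the place of TASOR in a separate complex with MPHOSPH8 and PPHLN1, had the highest mean CPM of the 9 genes. TASOR2 (Entrez identifier 54906) is found on chromosome 10 from 5688634 to 5767529 on the plus strand, with 27 exons and 11035 exonic bases. It was at 244.9 and 246.16 CPM in MORC2 KO and 262.5 and 246.20 CPM in WT. The genotypes were all but level, with MORC2 KO replicate 2 and WT replicate 2 next to each other and WT replicate 1 the highest. The log2 fold change was -0.05 (95% interval -0.18 to 0.08), and with offsets that remove a trend on abundance it was 0.01. Without WT replicate 1 it was -0.005, and without WT replicate 2 it was -0.096.

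The methyltransferase genes were both slightly higher in the KO samples. SETDB1 (Entrez identifier 9869; chromosome 1, 150049948 to 150088436, plus strand, 23 exons) was at 106 and 109.7 CPM in MORC2 KO and 95.9 and 99.9 CPM in WT. Its KO samples were above its WT samples by a small margin, at 110.2% of the WT level, with a log2 fold change of 0.14 (95% interval 0.02 to 0.27). With each sample left out in turn it ran from 0.11 to 0.17. SETDB2, a relative of SETDB1 from the same enzyme family (Entrez identifier 83852; chromosome 13, 48662906 to 48713649, plus strand, 16 exons), was at 6.12 and 6.95 CPM in MORC2 KO and 5.95 and 5.88 CPM in WT. MORC2 KO replicate 1 was close to the WT samples and MORC2 KO replicate 2 stood above them, and the log2 fold change was 0.14 (95% interval -0.11 to 0.40). It was 0.05 without MORC2 KO replicate 2 and 0.22 without MORC2 KO replicate 1. SETDB2 shares 2755 exonic bases, 42.3% of its own, with the read-through gene SETDB2-PHF11, which was listed at 0 in all 4 samples. Read pairs that overlap more than 1 gene were left out of the counts, so the level of SETDB2 is understated.

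The cofactor genes were also somewhat higher in the KO samples. ATF7IP, the nuclear partner of SETDB1 (Entrez identifier 55729; chromosome 12, 14243190 to 14380441, plus strand, 20 exons), was at 103 and 107 CPM in MORC2 KO and 98.7 and 97.0 CPM in WT. The KO samples were the higher pair, and the log2 fold change was 0.10 (95% interval -0.03 to 0.22). Its paralogue ATF7IP2 (Entrez identifier 80063; chromosome 16, 10421735 to 10519259, plus strand, 14 exons) was at 9.70 and 10.1 CPM in MORC2 KO and 7.78 and 8.74 CPM in WT. ATF7IP2 had the largest fold change after TASOR, 0.26 on the log2 scale (95% interval 0.05 to 0.48), and its WT samples differed from each other by more than its KO samples did. The log2 fold change was 0.18 without WT replicate 1 and 0.35 without WT replicate 2.

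**Figure D2:**
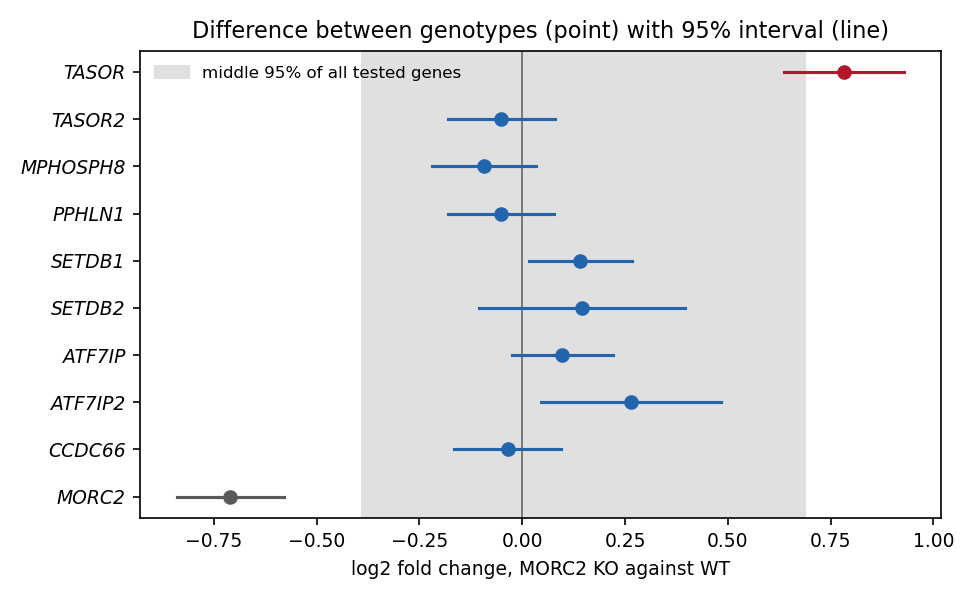
Log2 fold change of MORC2 KO against WT (point) with its 95% interval (line) for the 9 genes and MORC2, over a grey band that holds the middle 95% of all tested genes (-0.39 to 0.69). TASOR, at 0.78, and MORC2, at -0.71, lie outside the band, and the other 8 genes lie inside it between -0.09 and 0.26.

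Apart from TASOR, the log2 fold changes of the other 8 genes ran from -0.09 for MPHOSPH8 to 0.26 for ATF7IP2, with a median of 0.03. The median over all tested genes was 0.01 and the median absolute log2 fold change over all tested genes was 0.10, against 0.10 for these 8. Of the 8, 4 were positive.

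CCDC66 encodes a microtubule-binding protein of the centrosome and cilium and lies tail to tail with TASOR. CCDC66 (Entrez identifier 285331) runs on chromosome 3 from 56597679 to 56662164 on the plus strand, with 23 exons and 3836 exonic bases. The spans of CCDC66 and TASOR overlap by 1706 bases, of which 306 are exonic in both, or 3.43% of the exonic bases of TASOR and 7.98% of those of CCDC66. The counting did not use the strand of the reads, so in the shared stretch RNA of TASOR and of CCDC66 cannot be told apart, and read pairs that overlap exons of both were left out. CCDC66 was at 47.4 and 47.1 CPM in MORC2 KO and 49.9 and 47.0 CPM in WT. The genotypes overlapped, and the log2 fold change was -0.04 (95% interval -0.16 to 0.09), with a change of sign to 0.00 with library size alone as scaling and to 0.01 without WT replicate 1. By this rule no counted pair of TASOR overlaps exons of both genes, so that its counts lie elsewhere is no result. Over its other exons too, RNA of either strand was counted as TASOR. No difference of the size of that in TASOR was seen in CCDC66, and the part of the overlap in the difference was not tested. The ratio of TASOR to CCDC66 was 1.92 and 2.15 in the KO samples, against 1.15 and 1.16 in the WT samples, per kb of exonic length.

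Levels were compared between genes as CPM per kb of exonic length, which takes out the effect of gene length on counts. Over all 4 samples the order from high to low was TASOR2 (22.6 ± 0.760, SD, n = 4), SETDB1 (21.7 ± 1.31), TASOR (19.8 ± 6.17), PPHLN1 (15.0 ± 0.555), MPHOSPH8 (14.5 ± 0.637), CCDC66 (12.5 ± 0.356), ATF7IP (8.74 ± 0.377), ATF7IP2 (2.43 ± 0.279) and SETDB2 (0.955 ± 0.0755). Over all 4 samples, the ranges of TASOR2 and SETDB1, of SETDB1 and TASOR, of TASOR and PPHLN1, and of PPHLN1 and MPHOSPH8 overlapped, so these neighbours did not differ beyond their spread. From MPHOSPH8 on, no gene overlapped the next. The range of TASOR spans both genotypes, so the order was also read within each. In the WT samples TASOR2 (23.8 and 22.3) was above SETDB1 (20.2 and 21.1), and SETDB1 was above PPHLN1, MPHOSPH8 and TASOR, of which neighbours in that order overlapped. In the KO samples TASOR, SETDB1 (22.4 and 23.1), TASOR2 (22.19 and 22.31), PPHLN1 and MPHOSPH8 followed each other without overlap. TASOR had the largest SD of the 9 genes, with both KO samples above both WT samples. TASOR was at rank 5 in both WT samples, at 14.9 and 14.2 CPM per kb, and at rank 1 in both KO samples, at 23.7 and 26.4 CPM per kb. SETDB1 was at rank 2 in all 4 samples, and TASOR2 was at rank 1 in the WT samples and at rank 3 in the KO samples. TASOR2, SETDB1 and TASOR were above 78.1% to 80.4% of all tested genes in level per kb, ATF7IP above 61.3%, ATF7IP2 above 39.1% and SETDB2 above 27.2%. Counted over the exonic bases not shared with another gene, SETDB2 was at 1.65 CPM per kb and the order of the 9 genes was the same.

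**Figure D3:**
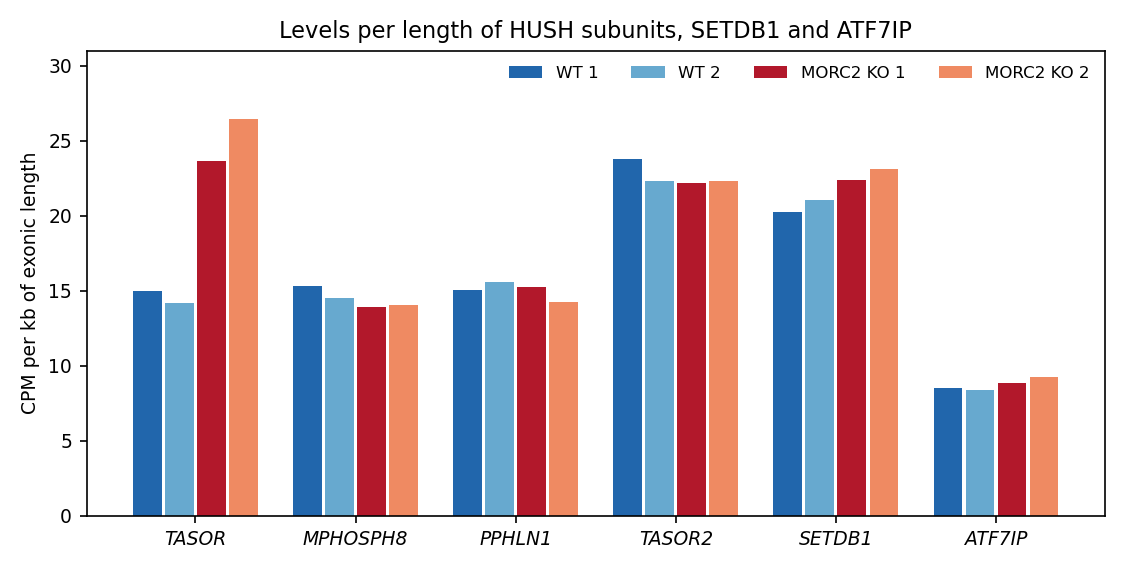
CPM per kb of exonic length as bars from 0 for 6 genes, with a bar for each of the 2 WT and 2 MORC2 KO samples. In WT the bars of TASOR (14.9 and 14.2) are near those of MPHOSPH8 and PPHLN1, and in MORC2 KO they (23.7 and 26.4) reach above those of TASOR2 and SETDB1.

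The 3 core subunits were at nearly equal RNA levels per kb in WT. Of their summed CPM per kb, TASOR made up 33.0% and 32.0% in the WT samples, MPHOSPH8 33.8% and 32.8%, and PPHLN1 33.2% and 35.2%. In the MORC2 KO samples TASOR made up 44.8% and 48.3%, MPHOSPH8 26.3% and 25.7%, and PPHLN1 28.9% and 26.1%. The KO samples were apart from the WT samples for each of the 3 subunits, and the lower shares of MPHOSPH8 and PPHLN1 go with the larger sum, as a share must fall when another rises. RNA levels per kb do not measure the proteins or the make-up of the complex.

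Ratios of levels per kb within a sample do not depend on the scaling of the libraries. TASOR over MPHOSPH8 was 1.70 and 1.88 in the KO samples, against 0.975 and 0.975 in the WT samples. TASOR over PPHLN1 was 1.55 and 1.85 in the KO samples, against 0.994 and 0.909 in the WT samples. TASOR over its paralogue TASOR2 was 1.07 and 1.18 in the KO samples, against 0.628 and 0.635 in the WT samples, so TASOR was the lower of the paralogues in WT and the higher in MORC2 KO. Ratios without TASOR moved less. PPHLN1 over MPHOSPH8 was 1.10 and 1.02 in the KO samples, against 0.981 and 1.07 in the WT samples, and the genotypes overlapped. TASOR2 over MPHOSPH8 was 1.59 and 1.59 in the KO samples, against 1.55 and 1.54 in the WT samples, a gap that is small beside those of TASOR. SETDB1 over ATF7IP was 2.53 and 2.51 in the KO samples, against 2.37 and 2.51 in the WT samples, and the genotypes overlapped. SETDB1 over SETDB2 was between 21.7 and 23.8 in the 4 samples, with the genotypes overlapping. This ratio is overstated, as read pairs on the shared bases of SETDB2 were left out. Over unshared exonic bases the mean levels were 21.7 CPM per kb for SETDB1 and 1.65 for SETDB2. ATF7IP over ATF7IP2 was 3.41 and 3.41 in the KO samples, against 4.09 and 3.58 in the WT samples, lower in both KO samples.

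The genes around TASOR were examined to see whether the difference extended along the chromosome. The count table held 5 other genes within 500 kb of TASOR, CCDC66 left aside, of which 4 had enough counts to be tested. None of the 4 was called in either direction, beside 0.588% and 0.03% of all tested genes, and none had an unadjusted p under 0.05 in edgeR's quasi-likelihood test, beside 8.14% and 6.17%. At these shares a count of 0 among 4 genes says little, and the values of the neighbours are given as they are. ARHGEF3, on the same strand, ends 44.2 kb before the start of TASOR. ARHGEF3 was at 11.6 and 10.02 CPM in MORC2 KO and 12.3 and 11.8 CPM in WT. Its KO samples were the lower pair, with a difference of -0.16 ± 0.10 on the log2 scale (standard error, adjusted p = 0.472, edgeR), opposite in sign to TASOR. IL17RD, an inhibitor of fibroblast growth factor signalling, was at 8.41 and 9.51 CPM in MORC2 KO and 9.29 and 8.55 CPM in WT, with a log2 fold change of 0.01 (adjusted p = 0.984, edgeR). ERC2, a scaffold gene of the presynaptic active zone 151.6 kb beyond the 3′ end of TASOR, was at 6.37 and 5.81 CPM in MORC2 KO and 6.15 and 5.96 CPM in WT, with a log2 fold change of 0.01 (adjusted p = 0.983, edgeR). The genotypes overlapped in both of these genes. SPATA12 had between 12 and 23 read pairs per sample, and its interval of -0.95 to 0.88 on the log2 scale could not exclude a difference as large as that of TASOR. ARHGEF3-AS1 had no read pair in any sample, which allows up to 3 counts, or 0.0466 to 0.0556 CPM by library total.

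**Figure D4:**
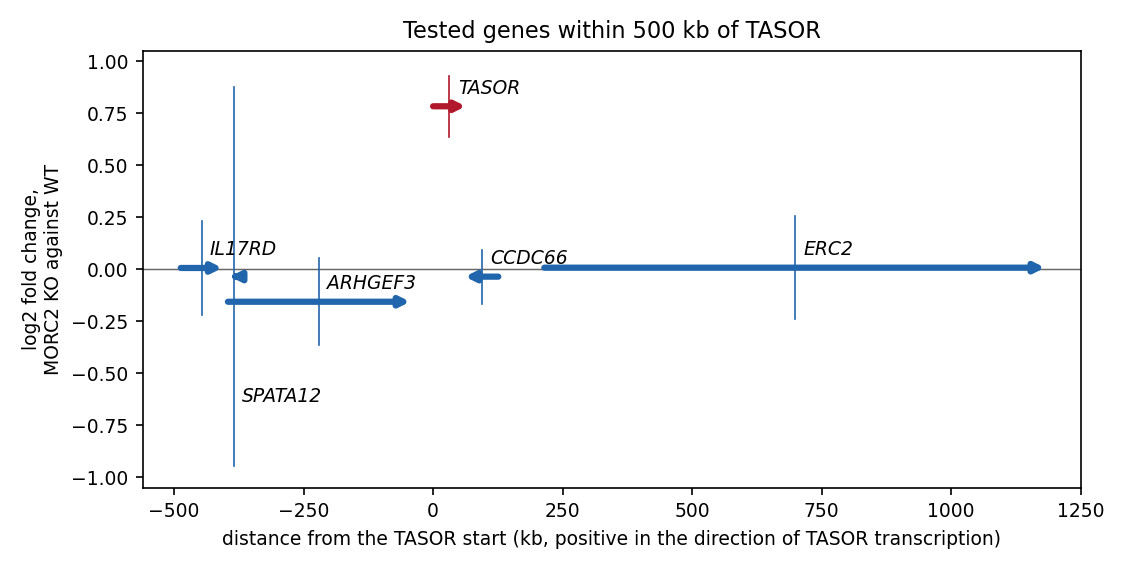
Tested genes within 500 kb of TASOR, drawn as arrows in the direction of transcription against the distance from the TASOR start in kb, at the height of their log2 fold change, MORC2 KO against WT, with the 95% interval as a vertical line. TASOR is drawn at 0.78, and the other 5 genes lie between -0.16 and 0.01.

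The wider silencing machinery was described with a list of 34 other genes, which holds other MORC genes, H3K9 methyltransferases and demethylases, heterochromatin proteins, HUSH-associated RNA decay factors and DNA methylation factors. Of the 33 that were tested, 0 were called higher and 0 lower by edgeR's quasi-likelihood test, and DESeq2 also called 0. At an unadjusted p under 0.05, 2 of the 33 were higher and 1 lower, beside 8.14% and 6.17% of all tested genes. The log2 fold changes ran from -0.13 to 0.19 with a median of -0.01, and 15 of the 33 were positive, beside a median of 0.01 over all tested genes. Both KO samples were above both WT samples in 8 of the 33, beside the 24.1% of all tested genes, and below in 12, beside 23.4%. MORC1, a germline gene, had no read pair in any sample.

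The 3 genes of the list with the smallest p were IRF2BPL, ZFC3H1 and UBE2E1. IRF2BPL, a gene of the interferon regulatory factor 2 binding protein family, was at 29.8 and 31.9 CPM in MORC2 KO and 26.6 and 27.4 CPM in WT, with a difference of 0.19 ± 0.07 on the log2 scale (standard error, adjusted p = 0.248, edgeR). ZFC3H1, a subunit of a nuclear RNA decay pathway, was at 83.7 and 92.7 CPM in MORC2 KO and 79.9 and 79.3 CPM in WT, with a difference of 0.15 ± 0.06 on the log2 scale (standard error, adjusted p = 0.320, edgeR). UBE2E1, a ubiquitin-conjugating enzyme gene, was at 62.3 and 61.1 CPM in MORC2 KO and 67.9 and 66.9 CPM in WT, with a difference of -0.13 ± 0.06 on the log2 scale (standard error, adjusted p = 0.335, edgeR). The genotypes did not overlap in any of the 3, and none passed the adjustment. The largest absolute log2 fold change of the list was 0.19, beside 0.78 for TASOR. Without MORC2 KO replicate 1 the same test called 4 of the list higher (RESF1, CBX5, ZFC3H1 and IRF2BPL) and 4 lower (CNOT1, TRIM28, MTREX and CBX3) of the 33, beside 8.16% and 12.4% of all genes in that fit. A fit on all 4 samples with a block of crossed replicate numbers, chosen after seeing the data, called 3 of the list higher (CBX5, ZFC3H1 and IRF2BPL) and 0 lower, beside 5.42% and 4.85% of all genes. Counts this close to the shares over all genes are no result about the list.

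**Figure D5:**
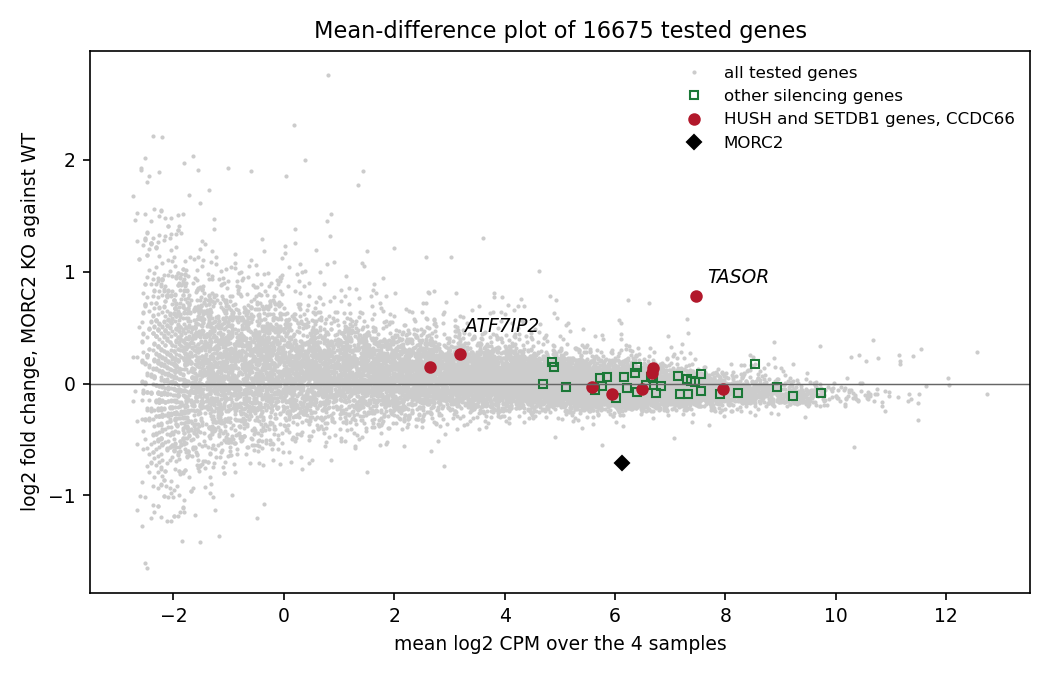
Log2 fold change of MORC2 KO against WT over the mean log2 CPM of the 4 samples, for all 16675 tested genes (grey), the 9 genes (red), 33 other silencing genes (green squares) and MORC2 (black). TASOR (0.78) and MORC2 (-0.71) stand away from the grey cloud at their abundance, and the squares lie between -0.13 and 0.19.

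Genes with a pattern like that of TASOR over the 4 samples were ranked by the distance between log2 CPM values, each centred on the mean of its gene. TASOR was at 0.31 and 0.47 in the KO samples and at -0.35 and -0.43 in the WT samples on this scale. The nearest of 16666 other genes were SLC25A43 (distance 0.0233), CCDC140 (0.0424), CCDC162P (0.0538), SNORD167 (0.0688) and MCM3AP-AS1 (0.0767), where the median distance was 0.808. SLC25A43, which encodes a mitochondrial carrier on chromosome X, was at 16.7 and 18.4 CPM in MORC2 KO and 10.4 and 10.03 CPM in WT. CCDC162P, a transcribed pseudogene on chromosome 6, was at 7.81 and 8.87 CPM in MORC2 KO and 4.76 and 4.68 CPM in WT. MCM3AP-AS1, an antisense gene on chromosome 21, was at 16.0 and 19.1 CPM in MORC2 KO and 10.5 and 9.64 CPM in WT. In each of the 3, as in TASOR, MORC2 KO replicate 2 was the highest sample and WT replicate 2 the lowest. This order follows from the choice by distance to TASOR over the same samples and is no further result. CCDC140 and SNORD167 rested on 10 to 29 read pairs per sample, where a likeness is weak, and reads of an antisense gene cannot be told apart from those of its partner without strand. All 5 were at a lower level in CPM than TASOR, and the likeness describes these 4 samples only.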

How the data were processed

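RNA-seq of 2 MORC2 KO and 2 WT samples was analysed. Reads were mapped by the authors with Subread 2.0.6 to the T2T-CHM13v2.0 assembly, and the deposited values are raw counts of read pairs per RefSeq gene from featureCounts 2.0.6, with no normalization. The recorded command ignored strand and dropped pairs overlapping several genes. It also counted multi-mapping reads, whereas the methods speak of default options. There were 0 count columns of other samples. Symbols were matched by Entrez identifier to a RefSeq table of GRCh38.p14 (28763 of 28775 genes). Gene coordinates are those of the count table, and promoter sequences and coordinates are those of RefSeq on GRCh38.p14. No coordinates were converted.

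Genes were filtered with filterByExpr (16675 kept), scaled with TMM factors of 0.986 to 1.03 and compared with quasi-likelihood F-tests in edgeR 4.0.16 (older form) under R 4.3.3, on genotype alone, with Benjamini-Hochberg adjustment at 0.05. Each standard error was obtained from the log2 fold change and the F statistic of its gene. Depth was 53970043 to 64312514 counts per sample, with 2 samples per genotype. Replicates differed by more than counting noise, with a chi-square per degree of freedom of 16.8 in MORC2 KO and 6.56 in WT over genes with at least 20 counts. The fit was checked on simulated counts in which 200 genes had known changes. Alternatives were other scalings, filters, DESeq2 1.42.0, a newer edgeR form, loess offsets (span 0.3), a replicate block and each sample left out.

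The 9 genes, the list of other silencing genes and the tests were chosen with earlier results of these data known. Named genes are the 9 genes, MORC2, the called genes of the silencing list and its 3 with the smallest p, the tested neighbours of TASOR, and the 5 genes nearest to TASOR in centred log2 CPM (prior count 2). The genes called without MORC2 KO replicate 1 or with crossed numbers were named after their values were seen.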

Additional observations from a re-analysis of the deposited data

How the results depend on the processing

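As a description, the log2 fold change of TASOR was 0.76 to 0.84 over 10 other settings and 0.70 to 0.85 with each sample left out. The order of levels per kb was the same for all 9 genes with library size alone, with TPM-type scaling and over unshared exonic bases, the last chosen after seeing the data. The number of genes called moved more, from 98 higher and 5 lower. It was 463 and 182 without a filter on low counts and 209 and 42 with exonic length offsets, and DESeq2 called 17 lower. With the replicate number as a block it was 237 and 42, with TASOR at 0.78; same-numbered samples had a correlation of deviations of -0.12, so the numbers were not taken to pair the samples. With crossed numbers, chosen after seeing the data, it was 903 and 809, with 3 of the other silencing genes higher. With a sample left out, the count was between 88 and 1397 higher and between 9 and 2117 lower, with the largest values without MORC2 KO replicate 1, and 149 were higher without WT replicate 1. The other silencing genes ranged from 0 to 4 called higher and from 0 to 4 lower, and the TASOR neighbours from 0 to 1 lower (ARHGEF3, without MORC2 KO replicate 1) and stayed at 0 higher. These fits leave 1 genotype with a single sample, which is assumed to vary like the others. The cause of these movements was not tested. With library size alone, the median log2 fold change of all genes moved to 0.05. Small log2 fold changes changed sign for TASOR2 (0.01 with abundance offsets) and CCDC66, and the value of PPHLN1 ran from -0.11 to -0.00 with a sample left out. Of the 9 genes, SETDB2 and ATF7IP2 had the fewest counts, 313 to 668 per sample.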
